A study of Homo sapiens with 6 samples.

Results

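The genes described here are 40 genes of glycolysis and of the response to low oxygen, read out in RKO cells with and without overexpressed Cx43. They were picked by name from a table of 63563 genes. For 39 of them the symbol cell of the table equals the name, and SLC16A3 (ENSG00000141526.10) shares its cell with a microRNA. RKO is an established human colorectal cancer line. All cells carried the pcDNA3.1 vector after stable transfection: the EV group (3 libraries) had it empty, with the genotype given as wild type, and the OVER43 group (3 libraries) had it with the cDNA of Cx43, the gap junction protein encoded by GJA1. The labels leave unsaid whether a line is 1 clone and whether each library had its own culture. The p-values here therefore rest on the scatter among these libraries alone, which may be technical. Poly(A) RNA was sequenced, and levels are FPKM (fragments per kilobase of transcript and M mapped fragments).

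Glycolysis turns glucose into pyruvate in the cytosol, and lactate dehydrogenase turns pyruvate into lactate, which monocarboxylate transporters carry out of the cell. Cancer cells often run this route at a high rate even with oxygen present. When oxygen is low, the prolyl hydroxylases that mark HIF-α for destruction slow down, HIF-α pairs with ARNT, and the pair binds hypoxia response elements near genes of glucose uptake, glycolysis, blood vessel growth and pH control. These cells were cultured at 5% CO2, and the labels name no low-oxygen treatment.

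The introduced gene GJA1 read 23.2, 26.0 and 24.9 FPKM in OVER43, beside 0.300, 0.351 and 0.394 FPKM in EV, so each library matched its label. Depth read from the steps of low FPKM values was 46.2 to 48.8 M fragments in OVER43 and 42.2 to 51.7 M in EV, if fragments were 200 bases long. Summed over all genes, FPKM was 554456 to 566947 per OVER43 library, above the 500546 to 509175 per EV library. Of 8 colon epithelium markers, EPCAM and KRT18 were higher in OVER43 (0.67 and 0.89 on the log2 scale), KRT8 was lower (-1.22), CDX2 was tested and not called, and KRT19, CDH1, VIL1 and LGALS4 were under 1 FPKM. The 7 fibroblast markers summed to 0.241 to 0.593 FPKM in OVER43 and 0.361 to 1.11 in EV, with COL3A1 at 0 in all libraries. The 3 endothelium markers summed to 0.252 to 0.388 and 0.0862 to 0.134 FPKM. Among the leukocyte markers reported, PTPRC and CD3E were at 0 in all libraries, and CD68 read 368 to 421 FPKM and was lower in OVER43 (-0.13). CD68 lies in a deposited locus of 15 genes, and KRT8 and KRT18 share a locus of 4 genes. Whether sharing a locus affected these levels was not tested. The part of these markers in the results below was not tested.

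The glycolytic enzymes ENO1, PKM and PGAM1 and the lactate dehydrogenase subunit LDHA were more abundant in OVER43 cells, while the glucose transporter SLC2A3 and hexokinase HK2 were less abundant, and the classical hypoxia targets split in both directions. Of the 40 genes, 35 passed the filter of at least 1 FPKM in at least 3 libraries. TPI1, PGK1, ENO2, EGLN3 and BNIP3 did not. Among the 35, 13 (37.1%) were higher in OVER43 at an adjusted p under 0.05 in limma, where 28.4% of all 12205 tested genes were, and 9 (25.7%) were lower, where 17.5% of all genes were. The groups did not overlap for 24 of the 35 (68.6%), beside 56.3% of all tested genes. With libraries scaled to equal FPKM sums the split was 10 members higher and 15 lower (28.6% and 42.9%), beside 15.3% and 29.3% of all tested genes. With a filter of at least 5 FPKM in 3 libraries, 12 of 33 members (36.4%) were higher and 8 (24.2%) lower. Of the 9249 genes tested there, 35.4% were higher and 17.2% lower, so the share of higher members was near that of all genes. The median difference of log2(FPKM + 1), OVER43 minus EV, was 0.04 over the 35 genes and 0.05 over all tested genes. All differences below are on this scale, which understates changes of genes near 1 FPKM.

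**Figure D1:**
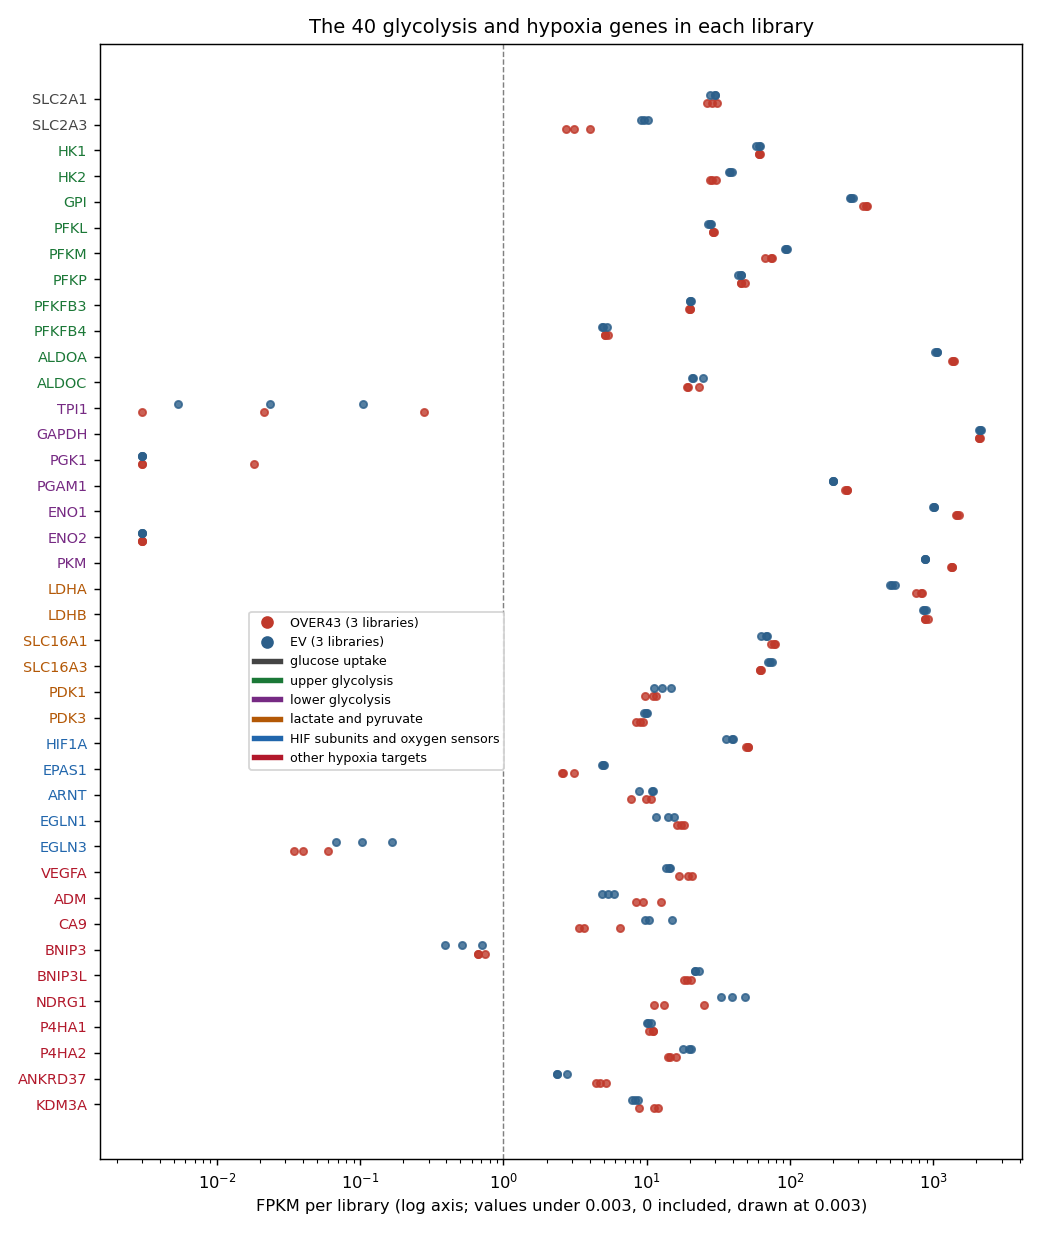
FPKM of each of the 40 genes in the 3 OVER43 libraries (red) and the 3 EV libraries (blue), on a log axis, with gene names coloured by role and a dashed line at the filter of 1 FPKM. PGK1, TPI1 and ENO2 lie far left of the line, beside pathway partners such as GAPDH at over 2000 FPKM.

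The promoters of the genes that moved by at least 0.5 are shown because HIF binds the core letters ACGTG or GCGTG. Each sequence is the 250 bases before the gene's start, 5′ to 3′ on the gene's strand, from RefSeq (GRCh38.p14). Capitals mark ACGTG or GCGTG, or their reverse complements CACGT or CACGC; the forward and reverse forms overlap within CACGTG. Where a gene has several starts, the window nearest to the start of its most abundant isoform was taken.
ENO1, chr1:8878687-8878936, minus strand: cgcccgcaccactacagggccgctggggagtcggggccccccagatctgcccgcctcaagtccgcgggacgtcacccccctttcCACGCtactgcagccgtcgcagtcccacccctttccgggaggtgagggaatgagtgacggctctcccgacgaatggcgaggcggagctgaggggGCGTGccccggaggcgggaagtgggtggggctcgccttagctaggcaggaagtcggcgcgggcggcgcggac
PKM, chr15:72231191-72231440, minus strand: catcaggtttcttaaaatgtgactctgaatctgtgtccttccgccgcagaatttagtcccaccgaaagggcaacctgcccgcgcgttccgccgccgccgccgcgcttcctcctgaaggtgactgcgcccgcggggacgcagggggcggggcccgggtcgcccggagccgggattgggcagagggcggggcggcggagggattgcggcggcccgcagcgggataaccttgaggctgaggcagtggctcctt
LDHA, chr11:18396101-18396350, plus strand: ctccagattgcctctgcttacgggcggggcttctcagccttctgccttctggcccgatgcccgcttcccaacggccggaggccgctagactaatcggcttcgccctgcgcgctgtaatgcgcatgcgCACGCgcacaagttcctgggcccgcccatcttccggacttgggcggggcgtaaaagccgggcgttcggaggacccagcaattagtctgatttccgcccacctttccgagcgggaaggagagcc
EPAS1, chr2:46297157-46297406, plus strand: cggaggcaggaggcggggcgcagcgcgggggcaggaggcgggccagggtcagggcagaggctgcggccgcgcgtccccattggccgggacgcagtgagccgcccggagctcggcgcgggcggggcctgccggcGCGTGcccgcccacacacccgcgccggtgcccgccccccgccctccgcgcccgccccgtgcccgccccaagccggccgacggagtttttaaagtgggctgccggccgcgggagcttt
ADM, chr11:10304823-10305072, plus strand: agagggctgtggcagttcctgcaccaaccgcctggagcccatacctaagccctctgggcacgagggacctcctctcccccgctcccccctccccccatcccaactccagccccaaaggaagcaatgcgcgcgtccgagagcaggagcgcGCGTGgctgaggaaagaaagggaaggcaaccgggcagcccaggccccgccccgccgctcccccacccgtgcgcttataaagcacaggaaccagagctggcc
CA9, chr9:35673678-35673927, plus strand: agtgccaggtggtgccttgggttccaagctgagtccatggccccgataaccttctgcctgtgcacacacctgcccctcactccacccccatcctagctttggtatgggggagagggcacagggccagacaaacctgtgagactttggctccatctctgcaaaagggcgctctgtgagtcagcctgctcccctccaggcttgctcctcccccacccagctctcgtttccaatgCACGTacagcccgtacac
ANKRD37, chr4:185396591-185396840, plus strand: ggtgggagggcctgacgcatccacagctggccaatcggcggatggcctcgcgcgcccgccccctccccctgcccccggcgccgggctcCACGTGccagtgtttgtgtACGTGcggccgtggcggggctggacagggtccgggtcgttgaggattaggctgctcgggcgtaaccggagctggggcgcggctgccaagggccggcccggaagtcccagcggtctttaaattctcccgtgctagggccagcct

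ANKRD37 has 3 matches, ENO1 has 2, LDHA, EPAS1, ADM and CA9 have 1 each, and PKM has none of these letters in the window. The letters are common: 43.2% of all 35116 windows and 56.2% of the windows of tested genes hold a match, beside 37 of the 63 windows of the members (58.7%). With 1 window for each of the 35 genes matched by symbol, a match was present in 9 of 11 genes that were higher, 4 of 6 that were lower and 9 of 13 that passed neither way. The share of all tested genes with 1 window each was not computed, so these counts cannot be set against the shares of windows. The search had first covered the 50 bases after the start as well, where 48.4% of all windows and 42 of the 63 windows of the members matched, and was shortened after those shares had been seen. A match describes letters and is not a bound site. SLC2A3, NDRG1, SLC16A1, VEGFA and BNIP3L were not matched.

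Glucose uptake was represented by 2 transporters. SLC2A3, which encodes the high-affinity transporter GLUT3 (hg19 chr12:8071826-8088871), read 3.12, 2.75 and 4.04 FPKM in OVER43 and 9.10, 10.1 and 9.57 in EV. All OVER43 libraries lay below all EV libraries, at 3.30 ± 0.665 against 9.60 ± 0.511 (SD, n = 3), and SLC2A3 fell by 1.31 (SE 0.12, adjusted p = 7.52e-05). Its 50 nearest tested genes on chromosome 12 had a median difference of -0.24. SLC2A1, which encodes the widespread transporter GLUT1, read 28.6 ± 2.36 and 29.2 ± 1.35 FPKM, with a difference of -0.03 (SE 0.07), and did not pass the test.

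In upper glycolysis, 10 genes were tested, 2 (20%) were higher and 2 (20%) were lower, beside 28.4% and 17.5% of all tested genes. ALDOA, the main muscle-type aldolase, which splits fructose bisphosphate, read 1367 ± 24.8 against 1050.3 ± 21.3 FPKM and rose by 0.38 (SE 0.03, adjusted p = 2.01e-05). GPI, which converts glucose 6-phosphate to fructose 6-phosphate, read 336 ± 10.2 against 269 ± 5.29 FPKM and rose by 0.32 (SE 0.03, adjusted p = 0.000131). Both isomerase and aldolase were higher in every OVER43 library than in any EV library. Under quantile scaling ALDOA was 0.19 and GPI 0.15 higher, still called, and their 50 nearest tested genes had medians of 0.16 and 0.10. HK2, the inducible hexokinase, read 28.9 ± 1.49 against 38.4 ± 0.658 FPKM and fell by 0.40 (SE 0.05, adjusted p = 0.000392). PFKM, the muscle-type subunit of phosphofructokinase, read 71.6 ± 4.17 against 94.0 ± 1.62 FPKM and fell by 0.39 (SE 0.05, adjusted p = 0.000356), where its 50 nearest tested genes had a median of -0.16. The constitutive hexokinase HK1, the phosphofructokinase subunits PFKL and PFKP, the kinase-phosphatases PFKFB3 and PFKFB4 that set fructose 2,6-bisphosphate, and the aldolase ALDOC did not pass the test. Their differences lay between -0.10 and 0.08. HK1 was called lower under quantile scaling (-0.13, adjusted p = 0.0332) and equal FPKM sums (-0.12, adjusted p = 0.0356), and PFKFB3 under equal FPKM sums (-0.15, adjusted p = 0.0298).

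Lower glycolysis had 7 genes, of which 4 were tested and 3 (75%) were higher, beside 28.4% of all tested genes. ENO1, the enolase of most tissues (hg19 chr1:8921061-8939953), read 1471, 1439.7 and 1499.6 FPKM in OVER43 and 1008, 1014 and 989 in EV. PKM, which makes pyruvate (hg19 chr15:72491370-72524164), read 1338, 1340.2 and 1351 FPKM in OVER43 and 881, 877 and 868 in EV. For both genes the groups lay far apart relative to their spread. ENO1 rose by 0.55 (SE 0.02, adjusted p = 2.78e-06), and PKM rose by 0.62 (SE 0.02, adjusted p = 5.12e-07), the smallest adjusted p of the 35 genes. PGAM1, the phosphoglycerate mutase, rose by 0.30 (SE 0.03, adjusted p = 7.78e-05) from 199.8 ± 1.55 to 246 ± 3.98 FPKM. Under quantile scaling PGAM1 was 0.13 higher, still called, and its 50 nearest tested genes had a median of 0.09 as deposited. GAPDH, which yields the NADH of glycolysis and is widely used as a reference gene, was the most abundant of the 40 at 2094 ± 22.1 against 2107 ± 33.1 FPKM, and its groups overlapped (difference -0.01, SE 0.02, adjusted p = 0.769). GAPDH was called lower, by 0.06 to 0.15, under 3 of 4 other scalings, and its 50 nearest tested genes had a median of -0.23.

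The 17 enzymes of upper and lower glycolysis together read 7150.1, 7083 and 7187 FPKM in OVER43 and 5804, 5869 and 5778 in EV, a ratio of means of 1.23. PGK1, TPI1 and ENO2 were listed near 0, possibly as failed estimates, and add almost nothing to these sums, which therefore do not cover the whole pathway. Because the FPKM sums differ between groups, the same 17 as a share of each library's sum were 1.28% ± 0.0104 in OVER43 and 1.15% ± 0.00885 in EV, a ratio of 1.11. ENO1, PKM and ALDOA make up most of the rise in the sum. Of the 14 tested enzymes, 5 (35.7%) were higher and 2 (14.3%) lower, beside 28.4% and 17.5% of all tested genes.

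Isoform entries showed which PKM transcript carried the change. Alternative splicing of mutually exclusive exons gives PKM1, the form of adult muscle and brain, and PKM2, the form of most proliferating cells. The exons that tell them apart are shown as GENCODE 29 gives them (GRCh38, chromosome 15, minus strand), each the ninth of its transcript, with capitals at the bases that differ.
PKM1, ENST00000319622, chr15:72203022-72203188: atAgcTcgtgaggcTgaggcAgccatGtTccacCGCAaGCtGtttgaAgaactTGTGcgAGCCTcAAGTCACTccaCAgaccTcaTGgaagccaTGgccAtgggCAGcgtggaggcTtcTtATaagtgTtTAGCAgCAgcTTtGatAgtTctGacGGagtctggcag
PKM2, ENST00000335181, chr15:72202454-72202620: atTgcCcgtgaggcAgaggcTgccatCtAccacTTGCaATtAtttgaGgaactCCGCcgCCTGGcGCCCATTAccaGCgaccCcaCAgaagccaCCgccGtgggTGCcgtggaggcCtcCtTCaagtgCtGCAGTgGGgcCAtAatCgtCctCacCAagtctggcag

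The exons are both 167 bases long, differ at 62 bases and are 62.9% identical. The PKM2 entry read 1128, 1115 and 1153 FPKM in OVER43 and 729, 718 and 703 in EV, and made up 84.3% and 81.9% of the gene. It rose by 0.66 (SE 0.02, adjusted p = 0.000110 over 31220 isoform entries). The PKM1 entry lay between 0.479 and 1.26 FPKM in all 6 libraries, was under the filter, and its groups overlapped. A minor entry, ENST00000389093, read 48.4 ± 2.28 against 61.1 ± 5.68 FPKM and fell by 0.33 (SE 0.07, adjusted p = 0.0392), a call lost on leaving out any 1 of 5 libraries (adjusted p 0.0628 to 0.115). Among the 541 isoform entries of the 40 genes, 136 were tested, 23 (16.9%) were higher, where 9.77% of all entries were, and 9 (6.62%) were lower, where 4.82% were. PKM alone had entries called in both directions.

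PGK1, TPI1, ENO2 and EGLN3 were listed near 0 and may be failed estimates. PGK1, the phosphoglycerate kinase that makes the first ATP of the pathway, was listed at 0 in 5 libraries and at 0.0183 FPKM in 1 OVER43 library, with 8 isoform entries and no other gene in its locus. TPI1, the triose phosphate isomerase, was listed at 0, 0.278 and 0.0213 FPKM in OVER43 and at 0.00532, 0.0233 and 0.104 in EV. ENO2, the neuronal enolase, was listed at 0 in 5 libraries and at 0.00219 FPKM in 1 EV library. TPI1 and ENO2 share 1 deposited locus of 6 genes, and all 6 read under 0.3 FPKM in every library. Meanwhile the pseudogene TPI1P1 read 3.80 to 5.17 FPKM. EGLN3, an oxygen-sensing prolyl hydroxylase, read 0.0594, 0.0397 and 0.0345 FPKM in OVER43 and 0.0677, 0.103 and 0.166 in EV, in a locus where SPTSSA read 13.1 to 22.4 FPKM. No direction was read for these 4 genes.

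For lactate and pyruvate handling, 6 genes were tested, 2 (33.3%) were higher and 1 (16.7%) was lower, beside 28.4% and 17.5% of all tested genes. LDHA, the lactate dehydrogenase subunit that favours lactate formation (hg19 chr11:18415935-18429972), read 839, 816 and 763 FPKM in OVER43 and 498, 539 and 517 in EV. The lowest OVER43 library lay above the highest EV library, and LDHA rose by 0.64 (SE 0.04, adjusted p = 2.14e-05). Its partner subunit LDHB read 889 ± 21.7 against 864 ± 22.6 FPKM and did not pass the test (difference 0.04, SE 0.03), although it was called lower, by 0.10 to 0.13, under quantile scaling and equal FPKM sums. SLC16A1, the lactate transporter MCT1, read 76.2 ± 2.23 against 66.6 ± 3.23 FPKM and rose by 0.19 (SE 0.05, adjusted p = 0.00966), a call lost under those same scalings. SLC16A3, the lactate exporter MCT4, read 61.9 ± 0.845 against 72.6 ± 2.58 FPKM and fell by 0.23 (SE 0.04, adjusted p = 0.00206). The kinases PDK1 and PDK3, which inhibit pyruvate dehydrogenase, had differences of -0.23 (SE 0.10) and -0.12 (SE 0.07) and did not pass the test. With equal FPKM sums both were called lower, at -0.37 (adjusted p = 0.0259) and -0.25 (adjusted p = 0.0201).

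Of the HIF subunits and oxygen sensors, 4 were tested, 2 (50%) were higher and 1 (25%) was lower, beside 28.4% and 17.5% of all tested genes. HIF1A, the oxygen-regulated subunit, read 50.4 ± 1.05 against 38.3 ± 2.22 FPKM and rose by 0.39 (SE 0.05, adjusted p = 0.000520). Its 50 nearest tested genes on chromosome 14 had a median difference of 0.38, close to its own. EPAS1, which encodes HIF-2α (hg19 chr2:46520806-46613836), read 2.55, 2.60 and 3.10 FPKM in OVER43 and 4.99, 4.83 and 5.06 in EV. All OVER43 libraries lay below all EV libraries, EPAS1 fell by 0.67 (SE 0.09, adjusted p = 0.000650), and its neighbours had a median of 0.04. EGLN1, the main prolyl hydroxylase, read 17.2 ± 0.861 against 13.7 ± 1.92 FPKM and rose by 0.31 (SE 0.10, adjusted p = 0.0286), a call lost on leaving out any 1 of 4 libraries (adjusted p 0.0529 to 0.0911) and under 3 of 4 other scalings (adjusted p 0.0561 to 0.169). ARNT, the constant partner subunit, overlapped between groups (difference -0.11, SE 0.13).

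**Figure D2:**
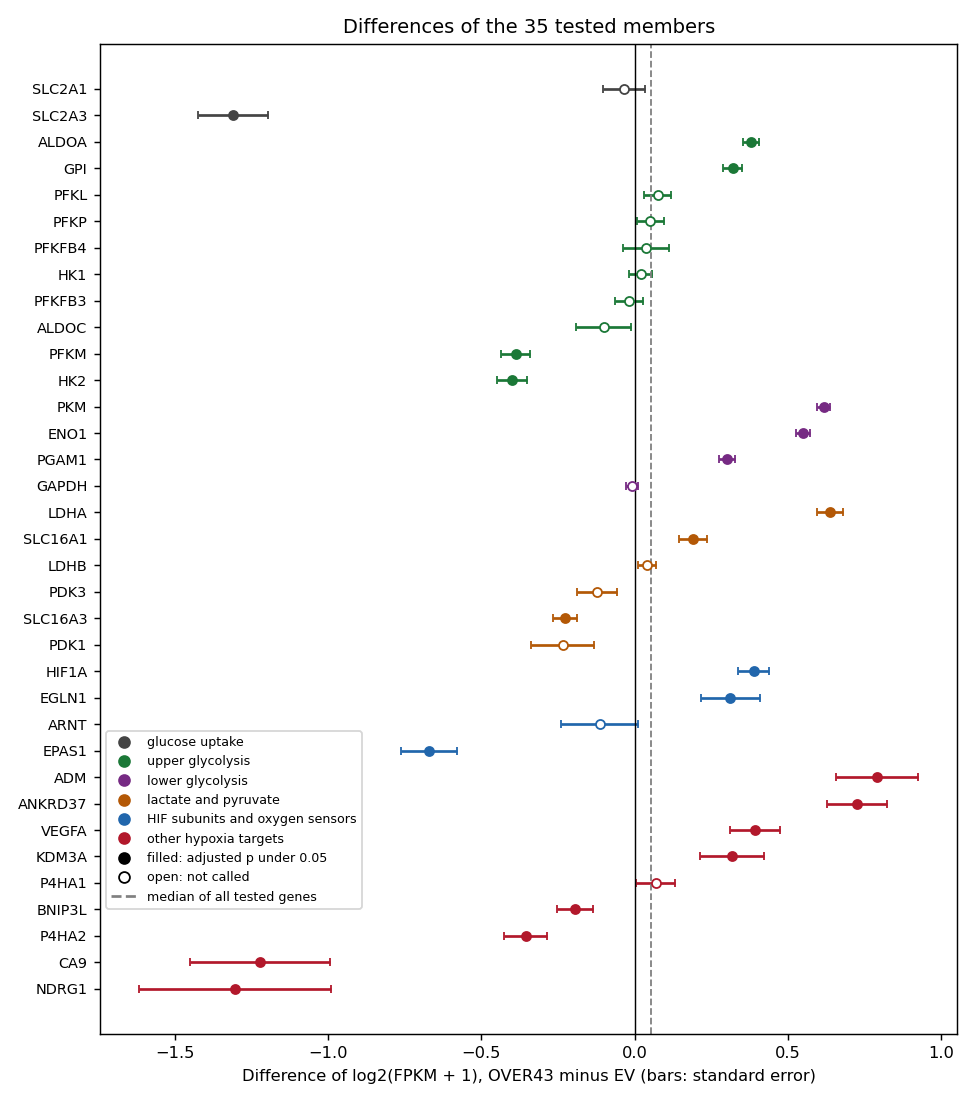
Difference of log2(FPKM + 1), OVER43 minus EV, with its standard error for the 35 tested genes, ordered by role; filled points have an adjusted p under 0.05, and the dashed line is the median of all tested genes. ADM at 0.79 is farthest right and SLC2A3 at -1.31 farthest left.

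The other hypoxia targets split evenly, with 4 of 9 higher and 4 lower (44.4% each), beside 28.4% and 17.5% of all tested genes. ADM, the vasodilator peptide adrenomedullin (hg19 chr11:10326227-10328944), read 12.5, 9.49 and 8.45 FPKM in OVER43 and 5.35, 5.95 and 4.85 in EV. ANKRD37, a small ankyrin-repeat protein (hg19 chr4:186317175-186347139, a locus of 3 genes), read 4.71, 5.18 and 4.40 FPKM in OVER43 and 2.35, 2.77 and 2.35 in EV. In neither gene did the groups overlap: ADM rose by 0.79 (SE 0.13, adjusted p = 0.00196) and ANKRD37 by 0.72 (SE 0.10, adjusted p = 0.000614). VEGFA, the main endothelial growth factor, rose by 0.39 (SE 0.08, adjusted p = 0.00493) from 14.2 ± 0.413 to 19.0 ± 2.11 FPKM. KDM3A, a histone H3 lysine demethylase, rose by 0.32 (SE 0.10, adjusted p = 0.0362), a call lost on leaving out any 1 of 5 libraries (adjusted p 0.0594 to 0.112).

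CA9, the cell-surface carbonic anhydrase IX that acidifies the surroundings of hypoxic cells (hg19 chr9:35658301-35681156, a locus of 4 genes), read 6.47, 3.38 and 3.63 FPKM in OVER43 and 9.68, 10.3 and 14.9 in EV. NDRG1, a stress-response gene (hg19 chr8:134249414-134314265), read 25.05, 13.2 and 11.3 FPKM in OVER43 and 33.2, 39.0 and 48.7 in EV. Both were lower in every OVER43 library, and OVER43 library 0 (libraries of a group are numbered 0 to 2, as the columns are) was the highest of its group for both. CA9 fell by 1.22 (SE 0.23, adjusted p = 0.00368) and NDRG1 by 1.30 (SE 0.31, adjusted p = 0.0192). The NDRG1 call was lost without OVER43 library 1 (adjusted p = 0.0695) or EV library 1 (adjusted p = 0.0600). With no filter on low values, CA9 (adjusted p = 0.0576), NDRG1 (adjusted p = 0.0798) and VEGFA (adjusted p = 0.0536) missed the threshold. P4HA2, a collagen prolyl hydroxylase subunit, fell by 0.36 (SE 0.07, adjusted p = 0.00417), and BNIP3L, a mitophagy receptor, fell by 0.20 (SE 0.06, adjusted p = 0.0264), a call lost on leaving out any 1 of 4 libraries (adjusted p 0.0502 to 0.0795). P4HA1 did not pass the test, and BNIP3 was under the filter at 0.691 ± 0.0480 against 0.540 ± 0.161 FPKM. OVER43 library 0 was the highest of its group in 17 of the 35 tested genes, beside 29.04% of all tested genes, and its part in these results was not tested beyond leaving it out.

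**Figure D3:**
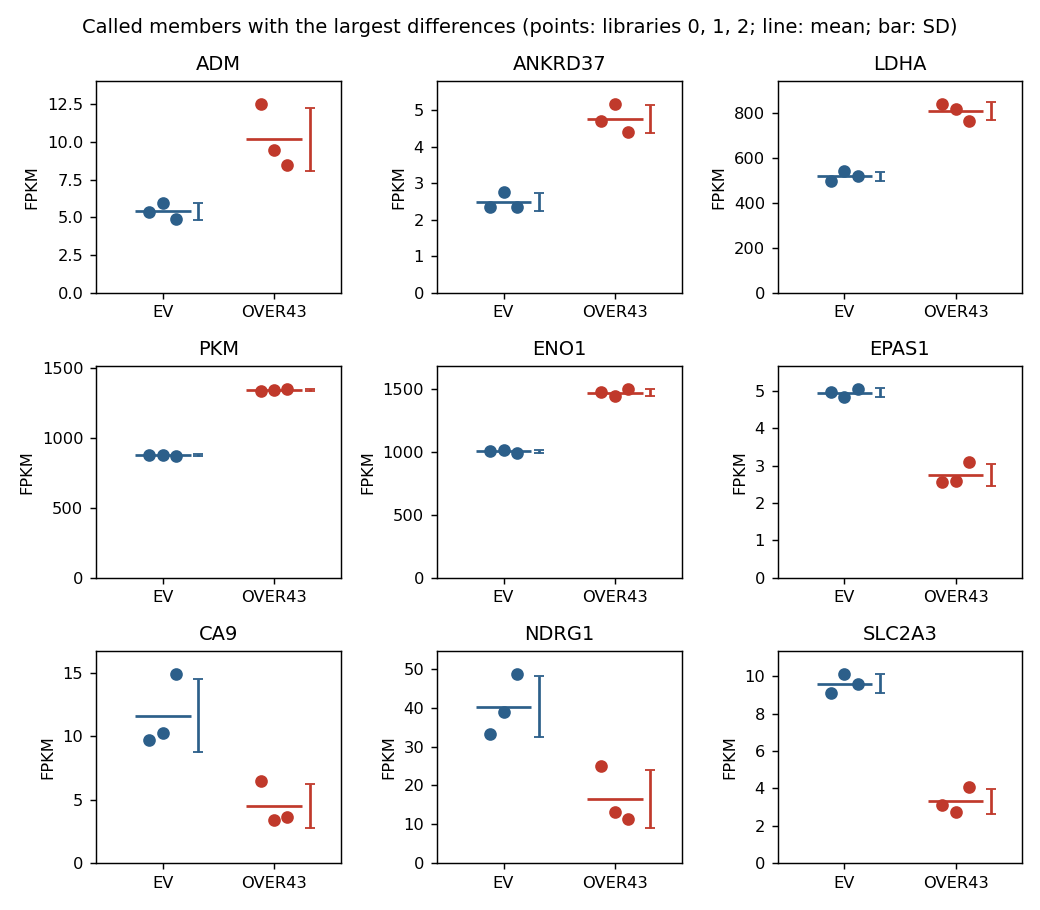
FPKM in each library for the 9 genes called with a difference of at least 0.5 in either direction, with the group mean as a line and the SD as a bar (n = 3 each); axes start at 0. The groups do not overlap in any panel, and the OVER43 points of ADM, CA9 and NDRG1 spread most, with library 0 highest.

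Ratios between related genes were compared library by library. The log2 ratio of HIF1A to EPAS1, each plus 1 FPKM, was 3.82, 3.85 and 3.67 in OVER43 and 2.77, 2.65 and 2.74 in EV, a difference of 1.06 (SE 0.07). The ratio of SLC2A1 to SLC2A3 differed by 1.28 (SE 0.19), LDHA to LDHB by 0.60 (SE 0.08), and HK2 to HK1 by -0.42 (SE 0.04). Of 13 pairs listed, 11 had a ratio, and in 8 the groups did not overlap, or in 7 with a pseudocount of 0.1. The share among other gene pairs was not computed. Each of the 8 had an exact two-sided permutation p of 0.1, the smallest that 3 against 3 libraries allow, and an adjusted p of 0.1375 over the 11 pairs, so none could pass the threshold. The ratios of PFKP to PFKL, PFKFB3 to PFKFB4 and PDK1 to PDK3 overlapped between groups.

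**Figure D4:**
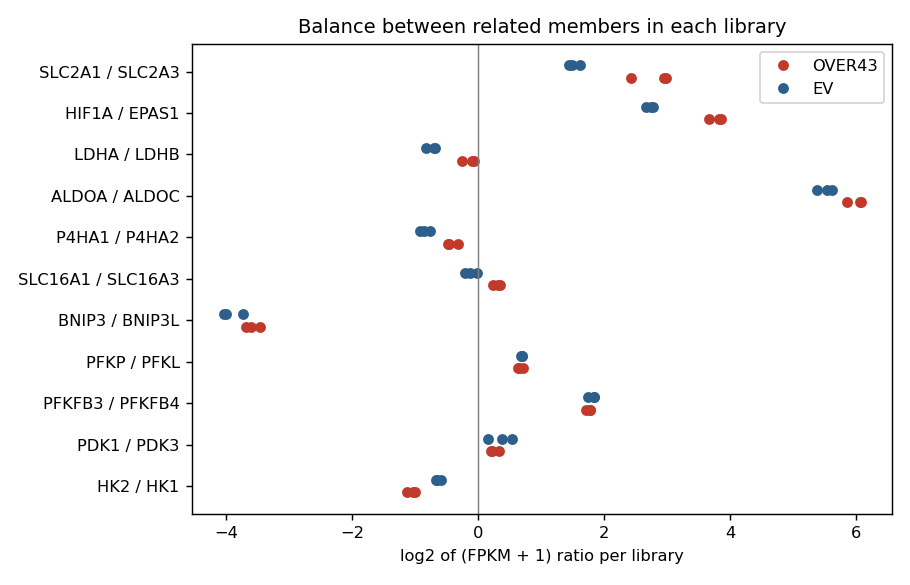
The log2 ratio of (FPKM + 1) in each library for 11 pairs of related genes, OVER43 in red and EV in blue. The widest gaps are those of SLC2A1 to SLC2A3 and HIF1A to EPAS1, and 3 pairs overlap.

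Entries that span the whole gene with its introns were above 0 in all libraries for 35 of the 40 genes. Of these, 9 were higher and 13 lower in OVER43 without overlap, where 9.42% of all 16067 such entries were higher and 30.7% lower. LDHA (0.334 against 0.186 FPKM) and PKM (1.85 against 1.23 FPKM) were higher there too, and NDRG1 (0.0356 against 0.0766 FPKM), CA9 (0.0239 against 0.0431 FPKM) and EPAS1 (0.00772 against 0.0162 FPKM) were lower. GAPDH was higher in these entries, at 1.47 against 1.29 FPKM, and LDHB was lower, at 0.137 against 0.161 FPKM. Among called members, means pointed the other way from the gene level for VEGFA (0.158 against 0.222 FPKM), P4HA2 (0.113 against 0.0961 FPKM) and SLC16A1 (0.274 against 0.314 FPKM). Their groups overlapped in these entries. PDK1, SLC2A1, PFKL and PFKFB4, which were not called, also pointed the other way with overlapping groups. BNIP3 (0.155 against 0.216 FPKM), PFKP and HK1 were lower in these entries without overlap, while their gene-level means were higher in OVER43. Genomic DNA and exon reads assigned to these entries were not tested.

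In the authors' deposited table, 15 of the 36 members with a Cuffdiff test (41.7%) were called significant, where 21.3% of all 15897 genes tested there were. All 15 were called by limma too, and 7 members were called by limma only: BNIP3L, EGLN1, KDM3A, PFKM, SLC16A1, SLC16A3 and VEGFA.

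Other genes of the same pathways were counted from the same fit. Of 106 such genes, 72 were tested, 25 (34.7%) were higher and 16 (22.2%) lower, with a median difference of 0.09. Over all tested genes the shares were 28.4% and 17.5%. With equal FPKM sums 15 of the 72 were higher and 22 lower, beside 15.3% and 29.3% of all tested genes. Among 36 tested genes of glucose metabolism 14 (38.9%) were higher and 6 (16.7%) lower. Among 36 of the hypoxia response 11 (30.6%) were higher and 10 (27.8%) lower. The largest rises were DDIT4, an mTORC1 inhibitor (0.74, SE 0.18, adjusted p = 0.0114), BHLHE41, a clock repressor (0.72, SE 0.15, adjusted p = 0.00583), GBE1, the glycogen branching enzyme (0.67, SE 0.07, adjusted p = 0.000130), and FUT11, a fucosyltransferase (0.65, SE 0.08, adjusted p = 0.000460). The largest falls were BHLHE40, the paralogue of BHLHE41 (-1.49, SE 0.08, adjusted p = 7.07e-06), the carbonic anhydrase CA12 (-0.75, SE 0.08, adjusted p = 0.000188), the nuclear receptor RORA (-0.70, SE 0.12, adjusted p = 0.00206), and ANGPTL4, a lipoprotein lipase inhibitor (-0.60, SE 0.05, adjusted p = 6.58e-05). RORA averaged 0.629 FPKM in OVER43 and 1.649 in EV, and no OVER43 library reached 1 FPKM. It therefore passed the filter through EV alone, so at this level only a fall could have been called. With no filter it was still called lower (adjusted p = 0.0096 in limma). CA12 fell alongside CA9, and BHLHE40 and BHLHE41 moved in opposite directions.

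**Figure D5:**
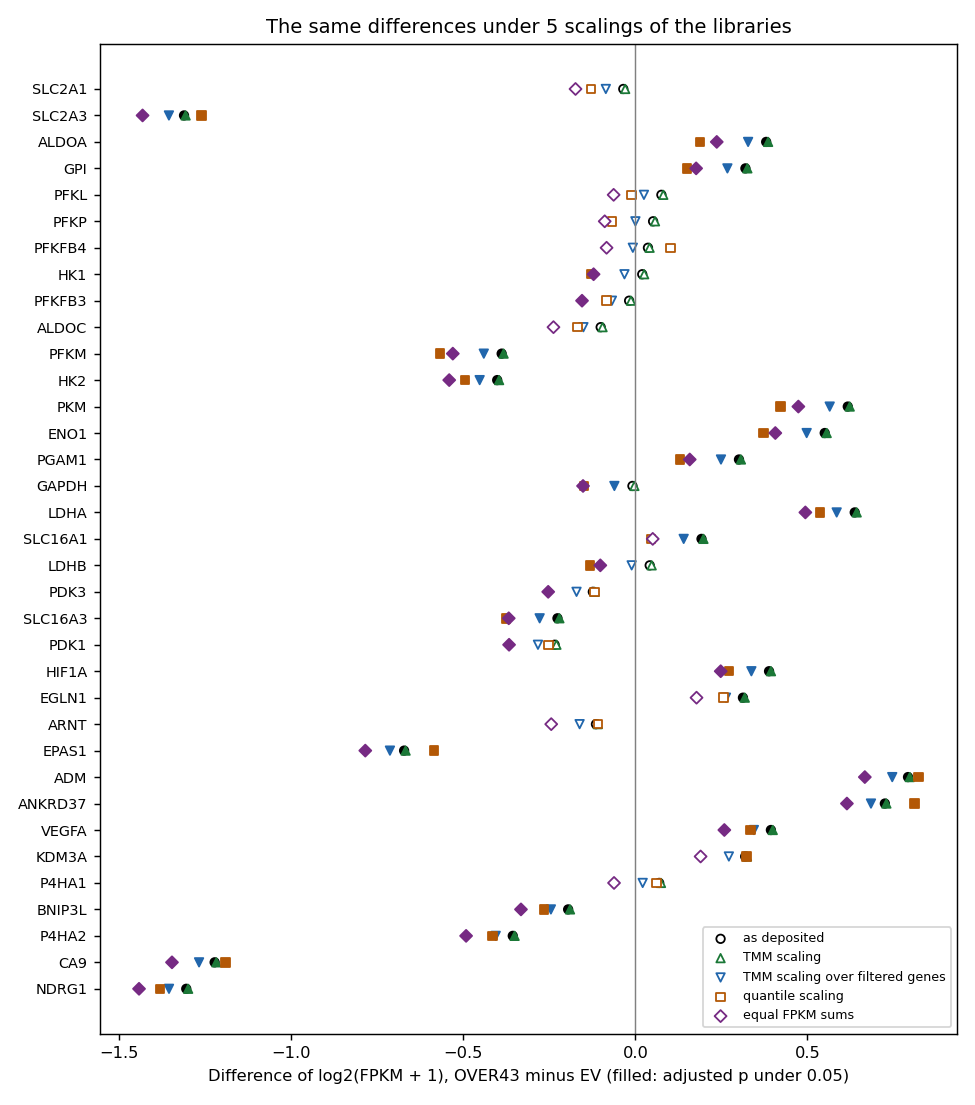
The difference of log2(FPKM + 1), OVER43 minus EV, of the 35 tested genes as deposited and under 4 other scalings of the libraries; filled symbols have an adjusted p under 0.05. Equal FPKM sums move the median of all tested genes from 0.05 to -0.08 and HK1, LDHB and GAPDH to called lower, and PFKFB3, PDK1 and PDK3 as well, while ENO1, PKM and LDHA stay called higher in each.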

How the data were processed

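Poly(A) RNA of 3 EV and 3 OVER43 libraries was prepared with an Illumina TruSeq RNA kit, per the labels' protocols. The authors deposited gene and isoform tables of FPKM from Cuffdiff, which the submitters' processing notes name without a version. The aligner is not given in the sources used here. The deposited log2 fold change is EV over OVER43, its test statistic is a score, and the p-values and q-values deposited beside it come from Cuffdiff, per the file headers. The notes name hg38, but only 271 of 52523 IDs also found in GENCODE 29 (GRCh38) have a start or end in common with it, and the loci are given here as hg19. Column numbers run from 0 to 2 and label numbers from 1 to 3, so a column is a library of its group and not a given sample; 19 genes without a usable estimate were left out.

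The test was limma 3.58.1 with trend and robust options, in R 4.3.3, on log2(FPKM + 1) of genes that reached 1 FPKM in 3 or more libraries, two-sided, group only, with Benjamini-Hochberg adjustment over all genes and a threshold of 0.05; isoform entries likewise. The procedure was tested on simulated data with few changed genes and independent noise. That setting differs from these data and cannot speak to the scaling of the libraries. Depth came from values under 10 fragments (83 to 93 a library, all within 0.1 of a whole number). All 40 members are named; those called with a difference of at least 0.5, or listed under 0.1 FPKM, are given by library, with the 4 largest called changes in each direction among other pathway genes. The members and lists were chosen with earlier results of these data known. The choice of promoter windows and the comparison of PKM exons were made after values had been seen. Alternatives were 4 other scalings, 2 other filters, a smaller pseudocount (0.1), a block on the column numbers, omission of each library in turn, and subtracting the median of the 50 nearest tested genes. Columns with the same number did not deviate together. Some marker results are not reported here.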

Additional observations from a re-analysis of the deposited data

How the results depend on the processing

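Of the 22 called members, 19 kept their call under 4 other scalings (SLC16A1, EGLN1 and KDM3A did not), and 15, 9 higher and 6 lower, kept it under each alternative that tested them (EPAS1 and ANKRD37 were below the filter of 5 FPKM). Subtracting the median of the 50 nearest tested genes gives no test. Among the 15 it left HIF1A at 0.0111, GPI and ALDOA at 0.22, PGAM1 at 0.21, PFKM at -0.23 and SLC2A3 at -1.07. The differences of ENO1, PKM, LDHA and ADM also became smaller in size. Those of HK2, SLC16A3, EPAS1, P4HA2 and ANKRD37 became larger. TMM scaling was computed over all genes above 0 first, and gave 13 (37.1%) higher and 9 (25.7%) lower with a median of 0.04. Of all tested genes 29.1% were higher and 17.2% lower there. A version over the genes that pass the filter was added after that result had been seen. It gave 11 (31.4%) higher and 10 (28.6%) lower, beside 23.2% and 21.0% of all tested genes. The median was -0.0107, and HK1 turned to -0.0316, PFKFB4 to -0.00725 and LDHB to -0.0107. Quantile scaling gave 11 (31.4%) higher and 12 (34.3%) lower, beside 20.88% and 20.04% of all tested genes. The median was -0.0834, and HK1 turned to -0.129, PFKL to -0.0108, PFKP to -0.0680 and LDHB to -0.132. Equal FPKM sums gave 10 higher and 15 lower with a median of -0.102, beside 1867 higher and 3579 lower of 12222 genes, moved the median of all tested genes from 0.05 to -0.08, and turned HK1 to -0.121, PFKL to -0.0630, PFKP to -0.0889, PFKFB4 to -0.0835, LDHB to -0.102 and P4HA1 to -0.0618. Without a filter 9 of 40 (22.5%) were higher and 6 (15%) lower, beside 7.43% and 5.11% of 31562 genes, those near 0 included. CA9 (adjusted p = 0.0576), NDRG1 (0.0798), VEGFA (0.0536), SLC16A1, EGLN1, BNIP3L and KDM3A lost their calls there. Relative to the 50 nearest tested genes the median was 0.0111.

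Leaving out 1 library at a time gave 11 to 12 members higher (31.4% to 34.3%) and 8 to 9 lower (22.9% to 25.7%). Of all tested genes 24.3% to 26.0% were higher and 14.5% to 15.7% lower in these fits. The median of the members was 0.02 to 0.05, and 16 to 22 isoform entries were higher and 6 to 9 lower. The shares over all isoform entries in these fits are not given, so these isoform counts show nothing particular to the members. Differences crossed 0 for 4 members that were not called: SLC2A1 ranged from -0.0910 to 0.0247, ARNT from -0.208 to 0.00985, HK1 from -0.00448 to 0.0383 and GAPDH from -0.0209 to 0.00126. PDK1 was called lower (adjusted p = 0.0378) without EV library 1. Other pathway genes were also counted under alternatives added after the data were seen. With equal FPKM sums 15 of 72 were higher and 22 lower, beside 15.3% and 29.3% of all tested genes. Without a filter 16 of 101 were higher and 12 lower, beside 7.43% and 5.11% of all genes, those near 0 included. Under quantile scaling 21 of 72 were higher and 22 lower, beside 20.88% and 20.04% of all tested genes. DDIT4 (adjusted p = 0.118) and BHLHE41 (0.0669) lost their calls without a filter.

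Same-numbered columns had correlations of 0.017, -0.091 and 0.029 in their deviations, and 2 of 6 libraries matched their own number best. No shared deviation was seen, but with 3 libraries per group these values cannot show whether the numbers pair the samples. With the replicate block 13 members (37.1%) were higher and 7 (20%) lower, beside 27.1% and 16.5% of all tested genes. The median was 0.04 (NDRG1, adjusted p = 0.0724, and BNIP3L, 0.0555, were lost), and 13 isoform entries were higher and 4 lower. The share over all isoform entries with this block is likewise not given.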
